A study of Sus scrofa with 32 samples.

Results

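The ham muscle semimembranosus (S) was compared with the loin muscle longissimus dorsi (LD) within Pulawska (PUL) pigs, across all genes. The comparison rests on 16 of the 32 libraries of the series, 8 of S and 8 of LD, chosen by the breed and muscle that the sample labels give. Each of 8 gilts gave 1 library of each muscle, and the libraries were paired by the animal number in the labels. The pigs are numbered 1, 2, 3, 4, 5, 13, 16 and 17 there. PUL is a native Polish breed, and the other 16 libraries come from the same muscles of 8 gilts of the commercial breed Polish Landrace (PL). All pigs were females labelled 180 days old, unrelated and from different farms, and were kept at 1 testing station under the same housing and feeding and fasted before slaughter. The study fed pigs to a set weight and correlated expression with age at slaughter, so single ages may differ from the age label. The labels give the PUL libraries a "high" and the PL libraries a "low" shear force, so that breed and this label cannot be told apart. The direction of this label goes against the meat texture measurements of the study, and the label was not used here. RNA was depleted of ribosomal RNA and sequenced as single reads, and a value is an expected count of reads per gene, scaled here to the library size (CPM, counts per 1e+06 counts). In such pieces of whole muscle, fewer cells of a type and less RNA per cell cannot be told apart.

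The loin muscle LD runs along the spine and belongs to the epaxial muscles of the trunk, which arise from the dorsal part of the somites. The ham muscle S belongs to the hind limb, whose muscle precursors migrate out of the somites into the limb bud. Cells of a body region keep a record of their position in the HOX genes, which encode homeodomain transcription factors and lie in clusters, where genes with high numbers are used nearer to the tail and to the tip of the limb. Genes of the ZIC family encode zinc finger transcription factors known from the neural tube and the dorsal somite. Adult muscles also differ in the share of slow, oxidative fibres and fast, glycolytic fibres, which use different isoforms of myosin, troponin and other contractile proteins.

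Expected counts summed to between 12142279 and 24761853 per PUL library, with medians of 16146381 (LD) and 15795782 (S). The 10 most abundant genes took between 27.3% and 46.1% of a library. Libraries of both muscles were rich in skeletal muscle RNA. The 12 fast fibre list genes alone summed to between 71801 and 232590 CPM in LD and between 108348 and 260278 CPM in S. No 2 libraries of a group were alike within sampling noise. None of the first 4 principal components of the PUL libraries separated the muscles. Genes of the liver were found in some libraries, and the S library of pig 5 stood out, with 920 CPM of the albumin gene ALB against at most 88.8 CPM in any other PUL library. All 16 PUL libraries went with their labelled muscle in the genes ZIC1, ZIC4, HOXC6 and HOXA7. These genes were picked by the comparison of the same PUL libraries, so this is no check of the PUL labels. In PL, 3 libraries went against their labels in these genes: the libraries labelled LD pig 14, S pig 14 and S pig 8. In HOXA10 and HOXA11, both libraries of pig 14 went against their labels too, while the library labelled S pig 8 had counts of both genes, unlike the LD library of that pig. The counts of passing genes in PL and in the interaction are therefore given with and without pigs 8 and 14, a choice made after these values were seen. Some PL values, such as those of gene lists, are given without these pigs only.

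**Figure D1:**
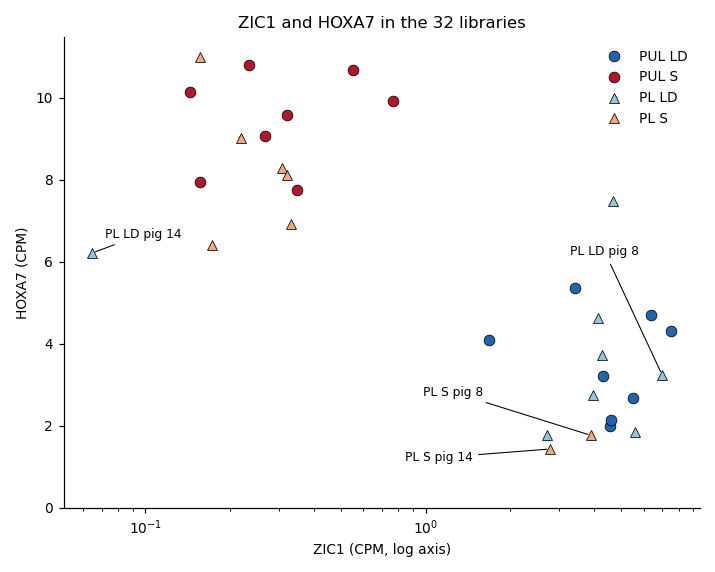
CPM of ZIC1 (x axis, log scale) against CPM of HOXA7 (y axis) in each of the 32 libraries, with circles for PUL, triangles for PL and labels on the libraries of PL pigs 8 and 14. The 8 PUL libraries of LD lie at ZIC1 of 1.68 CPM or more and the 8 of S at 0.763 CPM or less, while the library labelled PL LD pig 14 lies among those of S and the libraries labelled PL S pig 8 and S pig 14 lie among those of LD.

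Few genes separated the muscles in PUL. Of the 7 that did, 4 encode transcription factors of body position: ZIC1, ZIC4 and HOXC6 were higher in LD and HOXA7 was higher in S. A gene passed the threshold at an adjusted p of 0.05 or less in edgeR's quasi-likelihood test, which treated the pig as a block, together with a fold change of 1.3 or more. Of 10771 genes tested, 7 passed (0.065%), 2 higher in S (0.0186%) and 5 higher in LD (0.0464%). Besides the 4 genes above, these were MSS51 and 2 IDs without a paired symbol, ENSSSCG00000025216 in LD and ENSSSCG00000016700 in S. The same number of genes, 7 of 10771 (0.065%), had ranges that did not overlap between the muscles, and 6 of these passed the test too. In 82 genes (0.761%) the S library was the higher of the pair in all 8 pigs, and in 98 genes (0.91%) the LD library was. The median log2 fold change of all genes, S over LD, was 0.0028.

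The count of 7 depended on single pigs and on the test. Without pig 3 it was 3, namely ZIC1, ZIC4 and HOXC6, and without pig 5 it was 15. These 3 genes passed whichever pig was left out, HOXA7 in 7 of the 8 cases, ENSSSCG00000016700 in 3, and MSS51 and ENSSSCG00000025216 in 2 each. Without pig 5, the gene LBX1, SLIT3, SYNC and an ID without a symbol were added in S, and ITIH4 and 3 IDs without a symbol in LD. DESeq2 called 112 genes, among them all 7, with 80 higher in S (0.743%) and 32 higher in LD (0.297%). At an unadjusted p under 0.05, 530 genes (4.92%) were higher in S and 380 (3.53%) higher in LD.

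**Figure D2:**
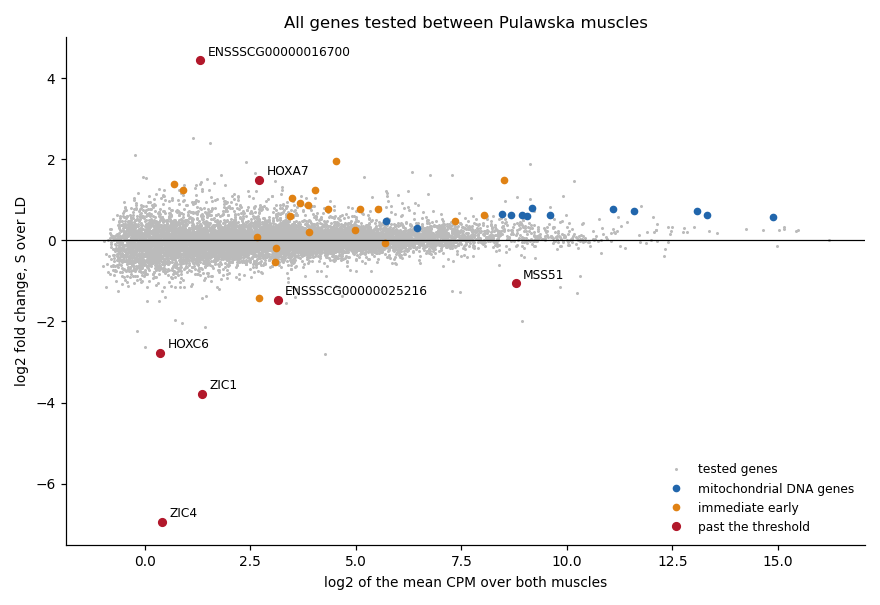
Log2 fold change of S over LD (y axis) against the log2 of the mean CPM over both muscles (x axis) for the 10771 genes tested in PUL, with the 7 genes past the threshold named and 2 gene lists marked in colour. ZIC4, at a log2 fold change of -6.94, and ENSSSCG00000016700, at 4.44, are the extremes, and the mitochondrial DNA genes lie between 0.29 and 0.80.

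ZIC1 had between 1.68 and 7.53 CPM in LD (median 4.58) and between 0.145 and 0.763 CPM in S (median 0.294). ZIC4 had between 1.32 and 4.72 CPM in LD (median 2.50), while in S it had no count in 6 pigs and at most 0.0536 CPM in the other two. LD was thus higher in each of the 8 pigs for both genes, with no overlap of the groups. For ZIC1 the means were 4.74 ± 1.79 CPM in LD and 0.348 ± 0.211 CPM in S (SD, n = 8 each), with a log2 fold change of -3.78 (SE 0.24, edgeR quasi-likelihood adjusted p = 2.48e-05). For ZIC4 the means were 2.65 ± 1.08 CPM in LD and 0.0124 ± 0.0231 CPM in S (SD, n = 8 each), with the same adjusted p. All LD libraries together held 413 counts of ZIC4 and all S libraries 2, a ratio of 184 per unit of library size (exact 95% interval 50.7 to 1526, for counting error only). ZIC1 and ZIC4 are neighbours in the assembly Sscrofa11.1, with 0 protein-coding genes between them.

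HOXC6 is a homeodomain gene of the trunk and forelimb level. It had between 1.07 and 3.32 CPM in LD (median 2.44) and between 0.107 and 0.592 CPM in S (median 0.302), so that every LD library lay above every S library. Its means were 2.25 ± 0.844 CPM in LD and 0.328 ± 0.172 CPM in S (SD, n = 8 each), with a log2 fold change of -2.77 (SE 0.30, edgeR quasi-likelihood adjusted p = 0.00433). HOXA7 went the other way. It had between 2.01 and 5.36 CPM in LD (median 3.66) and between 7.75 and 10.8 CPM in S (median 9.75), again without overlap. Its means were 3.57 ± 1.24 CPM in LD and 9.48 ± 1.16 CPM in S (SD, n = 8 each), with a log2 fold change of 1.49 (SE 0.18, adjusted p = 0.0106 in the same test). Unlike ZIC4, HOXA7 had counts in every library of both muscles.

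MSS51, which encodes a mitochondrial protein enriched in skeletal muscle, had between 399 and 988 CPM in LD (median 562) and between 240 and 324 CPM in S (median 276). The groups did not overlap, and the spread was wide in LD and narrow in S, with 604 ± 181 CPM against 278 ± 29.1 CPM (SD, n = 8 each). Its log2 fold change was -1.06 (SE 0.15, edgeR quasi-likelihood adjusted p = 0.03). The highest LD value, 988 CPM, was that of pig 13, and leaving it out gave a log2 fold change of -0.98 with an adjusted p of 0.0756. Of the IDs without a symbol, ENSSSCG00000016700 had between 0 and 1.61 CPM in LD (median 0.204) and between 2.75 and 7.73 CPM in S (median 4.15), with no overlap and a log2 fold change of 4.44 (SE 0.62, adjusted p = 0.027). ENSSSCG00000025216 had between 4.85 and 22 CPM in LD (median 12.3) and between 1.95 and 7.92 CPM in S (median 4.43). LD was higher in all 8 pigs although the groups overlapped, and the log2 fold change was -1.46 (SE 0.20, adjusted p = 0.027).

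**Figure D3:**
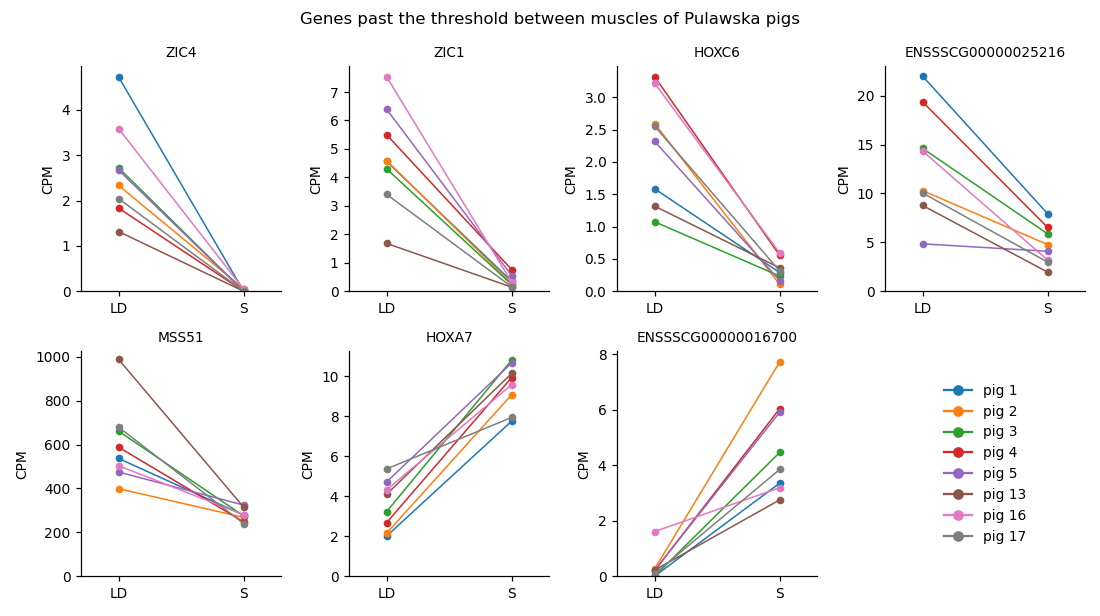
CPM (y axes, each from 0) in LD and S of the 7 genes past the threshold, with 1 line per PUL pig. Every line falls from LD to S for ZIC4, ZIC1, HOXC6, ENSSSCG00000025216 and MSS51 and climbs for HOXA7 and ENSSSCG00000016700, and the lone high LD point of ENSSSCG00000016700, at 1.61 CPM, is pig 16.

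Many genes of body position had too few counts for the filter on low counts, which kept 21 of the 66 homeobox, T-box, ZIC and related genes that had an ID. Of the 66, 10 had no count in any PUL library. Of the 21 tested, 1 passed higher in S and 3 higher in LD, which are the 4 genes above, and the median log2 fold change of the 21 was 0.24. Without the filter, 25 of 19081 genes passed (0.131%), 12 higher in S (0.0629%) and 13 higher in LD (0.0681%), and all 7 genes above were among them. Of these 25, 5 of the 12 and 5 of the 13 belonged to the positional list. In the same way, 13 of 19081 genes had no overlap between the muscles (0.0681%), and 10 of the 13 were positional genes, 6 higher in S and 4 higher in LD. A gene seen in only 1 muscle passes a filter through that muscle alone, so the share of tested members that passed was not used as a measure.

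ZIC2, another gene of the ZIC family, passed without the filter and was higher in LD. It had between 0.0716 and 0.941 CPM in LD (median 0.280) and a count in only 1 library of S, that of pig 16. Its summed counts were 63 in LD and 2 in S, a ratio of 28.1 (exact 95% interval 7.46 to 237). LD was higher in all 8 pigs, with an adjusted p of 0.0262 in edgeR's fit without the filter. ZIC5, next to ZIC2 in the assembly, had 5 counts in LD and 0 in S and was not past the threshold.

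In the HOXA cluster, the genes that passed were HOXA7, HOXA10 and HOXA11. HOXA3 and HOXA5 had log2 fold changes of 0.45 (SE 0.28) and 0.24 (SE 0.20) and did not pass, and HOXA7 is described above. HOXA10 had between 0.579 and 3.19 CPM in S (median 1.57) and counts in only 2 LD libraries, with at most 0.146 CPM. Its summed counts were 240 in S and 4 in LD, with a log2 fold change of 5.66 (SE 0.69, edgeR quasi-likelihood adjusted p = 0.00208 without the filter). HOXA11 had between 0.276 and 1.96 CPM in S (median 0.676) and 1 count in all of LD. Set against its counts in S, this gave a ratio of 113 (exact 95% interval 19.9 to 4516, adjusted p = 0.000573). Both genes were higher in S in 8 of 8 pigs, with no overlap. HOXA2 and HOXA9 had at most 8 counts summed over a muscle and gave no clear direction.

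In the HOXC cluster, the 3 genes with counts took opposite sides. HOXC6 was higher in LD, as described, while HOXC10 was higher in S in all 8 pigs. HOXC10 had between 0 and 0.512 CPM in LD (median 0.107) and between 0.520 and 2.03 CPM in S (median 1.28), with a log2 fold change of 3.41 (SE 0.53, adjusted p = 0.0162 without the filter). HOXC11, its neighbour, had 17 counts in S and 0 in LD, at least 6.35-fold higher in S when set against a floor of 3 counts over the LD group. It had a count in every S library, although its adjusted p was 0.623.

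The HOXB and HOXD genes showed no difference past the threshold. In HOXB, the 5 genes with at least 20 counts, HOXB2, HOXB3, HOXB5, HOXB6 and HOXB7, had log2 fold changes between -0.73 and 0.23, with SE of 0.36 to 0.62. In HOXD, HOXD1, HOXD3, HOXD4 and HOXD9 had log2 fold changes of 0.07, -0.31, 0.29 and 0.67, with SE of 0.47, 0.76, 0.31 and 0.37. HOXD10 had 20 counts in S, in 5 libraries, and 2 in LD, a ratio of 11.2 (exact 95% interval 2.72 to 98.9), with an adjusted p of 0.786. Neither HOXC11 nor HOXD10 passed, with unadjusted p of 0.01 and 0.0291.

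Of the other transcription factors of the list, 1 passed without the filter, namely SIM2. SIM2, a factor of the bHLH-PAS family, had between 0.231 and 1.10 CPM in S (median 0.464) and at most 0.0740 CPM in LD, with 73 counts against 4, and passed without the filter (log2 fold change 4.05, SE 0.65, adjusted p = 0.0186). LBX1, which guides muscle precursors into the limb, had between 0.421 and 3.09 CPM in LD (median 1.02) and between 1.56 and 3.43 CPM in S (median 2.61). S was higher in all 8 pigs, with a log2 fold change of 1.35 (SE 0.27), but the adjusted p was 0.175 with edgeR and 0.00342 with DESeq2. IRX3, a homeodomain factor of the Iroquois family, had 3.08 ± 3.03 CPM in LD and 0.589 ± 0.331 CPM in S (SD, n = 8 each), with a log2 fold change of -2.03 (SE 0.58, adjusted p = 0.358, or 0.0132 in DESeq2), and S was the higher in 2 pigs. The limb genes TBX4 and TBX5 had 2 counts each in S and 0 in LD. TBX2, TBX3, MEOX2 and PITX3 had log2 fold changes between -0.38 and 0.12 without the filter, with SE of 0.23 to 0.37. ZNF503, a zinc finger gene outside the list and named after its value was seen, passed without the filter, with between 0.292 and 3.30 CPM in LD (median 1.91) and between 0 and 0.442 CPM in S (median 0.150).

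**Figure D4:**
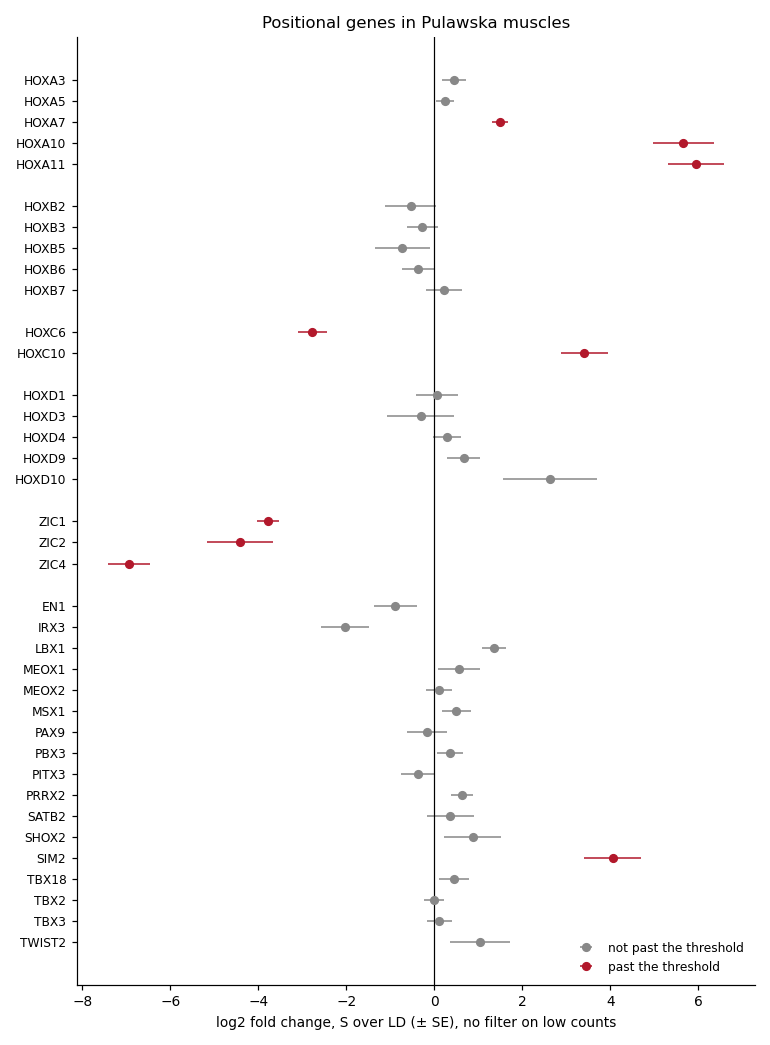
Log2 fold change of S over LD with its SE (x axis), fitted in PUL without a filter on low counts, for 37 positional genes with at least 20 counts over the 16 libraries, ordered by family and number. ZIC1, ZIC2, ZIC4 and HOXC6 lie to the left of 0, HOXA7, HOXA10, HOXA11, HOXC10 and SIM2 lie to the right, these 9 are drawn as past the threshold, and values of genes with under 4 counts in a muscle depend on the prior count of the fit.

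Outside the positional list, PVALB, S100A1, CIB2 and NFATC1, all known from calcium binding or calcium signalling, passed without the filter and were higher in S. PVALB, S100A1 and NFATC1 were named after their values were seen, and CIB2 for its low p in the interaction, which uses the same PUL values. With the filter the edgeR adjusted p of these genes lay between 0.0608 and 0.11. Of the 30 tested genes of the calcium handling list, 16 had a positive log2 fold change and 14 a negative one. In that list, 2 genes higher in S and 3 higher in LD had an unadjusted edgeR quasi-likelihood p under 0.05. PVALB, the calcium buffer parvalbumin of fast fibres, had between 10.1 and 177 CPM in LD (median 44.9) and between 24.7 and 668 CPM in S (median 223). S was higher in 7 pigs, pig 2 being the exception, and the log2 fold change was 1.61 (SE 0.28, edgeR quasi-likelihood adjusted p = 0.0956 with the filter). S100A1, a calcium sensor of the sarcoplasmic reticulum, had between 20.6 and 181 CPM in LD (median 35.5) and between 83.6 and 350 CPM in S (median 133). Its log2 fold change was 1.61 (SE 0.29, adjusted p = 0.110), and pig 1 was the exception, without which the gene passed (1.86, SE 0.21, adjusted p = 0.00934). CIB2, a calcium- and integrin-binding protein, had between 3.44 and 7.74 CPM in LD (median 4.45) and between 7.31 and 11.5 CPM in S (median 9.46), higher in S in all 8 pigs, with a log2 fold change of 0.97 (SE 0.15, adjusted p = 0.0608).

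NFATC1, the transcription factor that calcineurin moves into the nucleus in active slow fibres, had between 0.851 and 7.80 CPM in LD (median 2.71) and between 2.49 and 23.3 CPM in S (median 6.36). S was higher in 8 of 8 pigs, with a log2 fold change of 1.21 (SE 0.20, adjusted p = 0.0635). RCAN1, also named after its values were seen, encodes an inhibitor of calcineurin and a known target of NFAT factors. It had between 17.3 and 59.7 CPM in LD (median 24.3) and between 31.9 and 414 CPM in S (median 97.2), the highest value being that of pig 5. S was again higher in 8 of 8 pigs, with a log2 fold change of 1.69 (SE 0.39) and adjusted p of 0.215 (edgeR quasi-likelihood) and 0.000393 (DESeq2). CHRNE, the adult-type subunit of the acetylcholine receptor at the motor end plate, had 2.09 ± 1.32 CPM in LD and 5.39 ± 2.93 CPM in S (SD, n = 8 each). It was higher in S in 8 of 8 pigs, with a log2 fold change of 1.37 (SE 0.33) and an adjusted p of 0.228, or 0.0048 in DESeq2. All 9 tested genes of the neuromuscular junction had a positive log2 fold change, with a median of 0.31, but 0 passed the threshold and CHRNE alone had an unadjusted p under 0.05.

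On the LD side, G0S2, an inhibitor of the lipase ATGL, had between 5.76 and 92.3 CPM in LD (median 28.6) and between 3.87 and 77.5 CPM in S (median 6.34). LD was higher in all 8 pigs, with a log2 fold change of -1.36 (SE 0.25, adjusted p = 0.131, and 0.0292 without the filter). ANKRD1, a stress-responsive protein of the titin spring region, had between 359 and 2024 CPM in LD (median 589) and between 29.8 and 477 CPM in S (median 161). LD was higher in all 8 pigs, but the log2 fold change of -1.98 had an SE of 0.46 and an adjusted p of 0.215, or 0.00508 in DESeq2. PLIN5, a lipid droplet protein of oxidative tissues, had 2.43 ± 1.84 CPM in LD and 8.08 ± 4.36 CPM in S (SD, n = 8 each), with S higher in 7 of 8 pigs and a log2 fold change of 1.94 (SE 0.48, adjusted p = 0.253, or 0.000621 in DESeq2). ANKRD1, PLIN5 and G0S2 were also named after their values were seen.

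The genes of mitochondrial DNA had higher values in S. All 13 had a positive log2 fold change, with a median of 0.62 and a range of 0.29 to 0.80, and 12 of the 13 had an unadjusted p under 0.05, against 4.92% of all genes in that direction. The genes of this and of the later lists come from the same 8 pigs and are not independent replicates. Such shares are therefore a description. No gene of the list passed the threshold in edgeR's quasi-likelihood test, where adjusted p lay at 0.408 or above. DESeq2 called COX2 alone in this list, while it called 0.743% of all genes higher in S. Their summed level was between 34166 and 65925 CPM in LD (median 42666) and between 38619 and 99825 CPM in S (median 68945), and S had the higher sum in 8 of 8 pigs. COX1, a catalytic subunit of cytochrome c oxidase, had between 14876 and 31562 CPM in LD (median 24404) and between 22200 and 51192 CPM in S (median 34305), with S higher in 7 of 8 pigs and a log2 fold change of 0.58 (SE 0.21). COX2 had 6518 ± 1742 CPM in LD and 10810 ± 3364 CPM in S (SD, n = 8 each), with a log2 fold change of 0.72 (SE 0.21), and ND1 and ND2, of complex I, had log2 fold changes of 0.61 (SE 0.27) and 0.62 (SE 0.21). Averaged over the 13 genes on the scale of log2(CPM + 0.5), the difference was 0.61 ± 0.66 (SD, n = 8 pigs), from -0.37 in pig 17 to 1.68 in pig 5. The count of 12 was between 6 and 12 when 1 pig was left out, and it was 3 with library size alone in place of TMM factors and 2 with all 32 libraries in one fit.

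The nuclear genes of oxidative phosphorylation went the same way by less. Of 80 listed genes, 41 had an ID and were tested. All 41 tested had a positive log2 fold change, from 0.11 to 0.57, with a median of 0.33. The share of positive values among all genes was 50.5%. Of the 41, 18 had an unadjusted p under 0.05 and were higher in S, against 4.92% of all genes in that direction. In edgeR's quasi-likelihood test 0 passed the threshold. DESeq2 called 3 higher in S, against 0.743% of all genes. These were COX4I1 (0.57, SE 0.16, edgeR quasi-likelihood adjusted p = 0.311), the ATP synthase inhibitor ATP5IF1 (0.45, SE 0.12, adjusted p = 0.296) and the complex I subunit NDUFB10 (0.40, SE 0.11, adjusted p = 0.346). NDUFB10 had between 125 and 215 CPM in LD (median 155) and between 173 and 229 CPM in S (median 211), and S was higher in all 8 pigs. Averaged over the list, the difference was 0.31 ± 0.35 (SD, n = 8 pigs), and pig 13, at -0.36, was the only pig below 0. The count of 18 was between 7 and 33 when 1 pig was left out, 8 without the pig as a block and 6 with library size alone, where the median was 0.19 and 40 of 41 were positive. Of 24 genes of the tricarboxylic acid cycle, 21 had a positive log2 fold change, with a median of 0.18, and 0 passed the threshold. In this list 2 genes had an unadjusted p under 0.05, or 8.33% against 8.45% of all genes in either direction. Fatty acid uptake and oxidation gave 18 positive values of 27, none with an unadjusted p under 0.05, with 0.18 (SE 0.21) for CPT2, while CPT1B had 18.1 ± 8.81 CPM in LD and 18.7 ± 11.8 CPM in S (SD, n = 8 each).

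Immediate early genes, which cells switch on within minutes of a stimulus, formed another list with many low p-values. Of 21 tested, 17 had a positive log2 fold change, the median was 0.76, and 12 had an unadjusted p under 0.05 higher in S, against 4.92% of all genes in that direction. None of the 21 passed the threshold, and DESeq2 called 9 higher in S, against 0.743% of all genes. The count of 12 was 7 without the pig as a block and 7 with all 32 libraries in one fit. The 9 were EGR1, EGR2, FOS, JUNB, IER2, MAFF, KLF4, GADD45B and PPP1R15A. EGR1 had between 0.983 and 49.6 CPM in LD (median 3.62) and between 4.23 and 141 CPM in S (median 17.9). S was higher in all 8 pigs, with a log2 fold change of 1.95 (SE 0.38, edgeR quasi-likelihood adjusted p = 0.162, and 0.0295 without the filter). FOS spanned from 11.5 to 1146 CPM in LD (median 111) and from 66.7 to 1798 CPM in S (median 286), with a log2 fold change of 1.48 (SE 0.41, adjusted p = 0.344), and S was higher in 6 pigs. KLF10 went the other way, higher in LD in 6 pigs and without a count in either muscle of the other two (log2 fold change -1.42, SE 0.44, adjusted p = 0.455). Averaged over the list, the difference was 0.55 ± 0.44 (SD, n = 8 pigs), and pig 4, at -0.03, was the only pig below 0. In which order the muscles of a pig were sampled after slaughter is not given in the sources used here.

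The tested genes of slow and fast fibres did not separate the muscles. Of the listed genes, only 8 of 18 for slow fibres and 12 of 19 for fast fibres had an ID. The 8 tested slow fibre genes gave 7 positive log2 fold changes and a median of 0.54, yet 0 passed the threshold and 0 had an unadjusted p under 0.05. TNNT1, the slow skeletal troponin T, had between 65.4 and 5646 CPM in LD (median 1540) and between 679 and 5563 CPM in S (median 1775). The groups overlapped almost wholly, S was higher in 4 of 8 pigs, and the log2 fold change was 0.57 (SE 0.54). The direction differed between pigs. Averaged over the list on the same log scale, S was above LD by 2.15 in pig 5, 1.91 in pig 17, 1.44 in pig 4, 1.14 in pig 2 and 0.67 in pig 3, while the difference was -2.31 in pig 1, -0.64 in pig 16 and -0.47 in pig 13. Leaving out 1 pig gave a median log2 fold change of the list between 0.17 (pig 17) and 0.90 (pig 1), and 3 of the 8 genes had an unadjusted p under 0.05 without pig 1 and 0 without any other pig. Without the pig as a block the median was 0.12. TNNC1 shows the same spread, with 6696 CPM in LD and 2346 CPM in S of pig 1, and 1274 CPM in LD and 6472 CPM in S of pig 5.

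Of 12 genes of the fast fibre list, 8 had a positive log2 fold change, the median was 0.21 and only PVALB had an unadjusted p under 0.05. MYL1 had 0.29 (SE 0.20), MYL11 0.22 (SE 0.22), TNNC2 0.26 (SE 0.25) and the fast calcium pump ATP2A1 0.15 (SE 0.27). MYBPC1, which encodes the slow type of myosin-binding protein C but was counted in this list, had -0.88 (SE 0.42). The IDs of near-identical myosin heavy chain genes share reads that the counting divides, and no comparison was made between them. Sarcomere and Z-disc genes were split evenly, with 17 positive and 17 negative values of 34 and -0.06 (SE 0.25) for NEB. Of 32 genes of glycogen and glycolysis, 20 were positive with a median of 0.22. Leaving out 1 pig gave a median of this list between 0.12 (pig 1) and 0.36 (pig 5). Without pig 5, 26 were positive, and 9 higher in S had an unadjusted edgeR quasi-likelihood p under 0.05, against 2 with all pigs. PYGM, the muscle glycogen phosphorylase, had 0.17 (SE 0.28) and PFKM, the muscle phosphofructokinase, 0.32 (SE 0.20). SLC16A3, the exporter of lactate, had 66.5 ± 53.3 CPM in LD and 103 ± 57.4 CPM in S (SD, n = 8 each), with a log2 fold change of 0.92 (SE 0.24, adjusted p = 0.295, or 0.0238 in DESeq2).

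**Figure D5:**
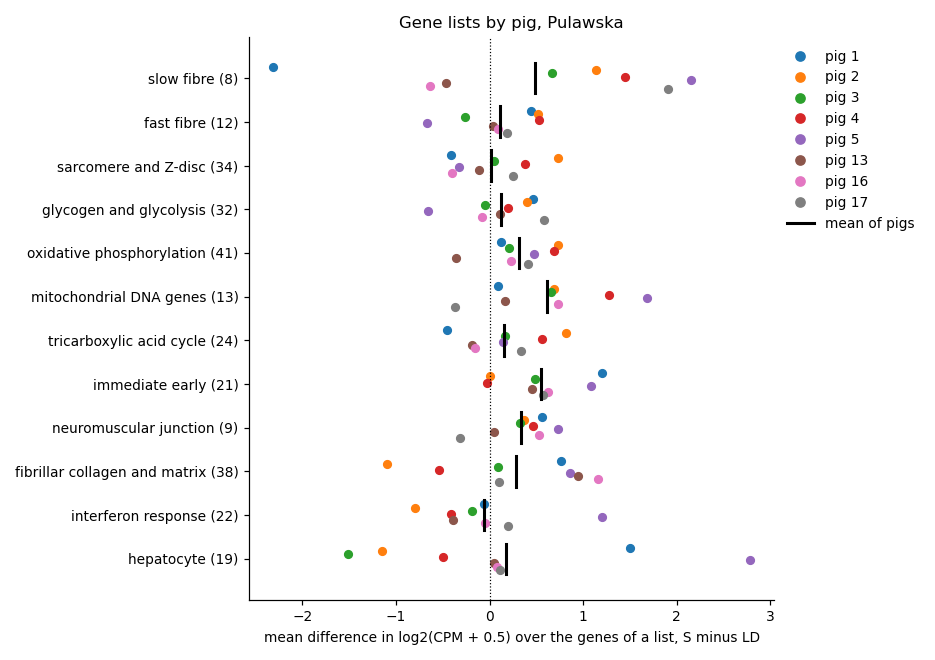
Mean difference of S minus LD in log2(CPM + 0.5) over the genes of 12 lists (x axis, number of genes in brackets), with 1 point per PUL pig and a bar at the mean of the 8 pigs. The slow fibre list runs from -2.31 in pig 1 to 2.15 in pig 5, and 7 of 8 pigs lie above 0 in the lists of oxidative phosphorylation, mitochondrial DNA, immediate early and neuromuscular junction genes.

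The lists of calcium handling and of regulators of fibre type and metabolism gave medians near 0, of 0.01 and -0.02, although they hold S100A1, NFATC1 and RCAN1. CACNA1S, the voltage sensor of excitation, had 0.07 (SE 0.24). The myogenic regulators MYOD1 and MYF6 had log2 fold changes of -0.27 (SE 0.18) and 0.46 (SE 0.27), and the median of 18 such genes was 0.06. Of 38 genes of fibrillar collagen and matrix, 29 were positive with a median of 0.24, 0 passed the threshold, and their mean difference ran from -1.10 in pig 2 to 1.16 in pig 16. Among them, COL3A1 had 0.16 (SE 0.41), and BGN, the proteoglycan biglycan, had 6.20 ± 2.93 CPM in LD and 11.2 ± 5.32 CPM in S (SD, n = 8 each), with a log2 fold change of 0.88 (SE 0.19, adjusted p = 0.176, or 0.00436 in DESeq2) and was higher in S in 8 of 8 pigs. Proteolysis and tenderness genes gave 21 positive values of 31 with a median of 0.10, and CAPN3, the muscle calpain, had -0.13 (SE 0.16). In this list, 5 genes higher in S and 1 higher in LD had an unadjusted edgeR quasi-likelihood p under 0.05. That is 19.4% of the list against 8.45% of all genes in either direction. Heat shock and chaperone genes had a median of 0.05, basement membrane and sarcolemma genes 0.02 and interferon response genes -0.09, with -0.26 (SE 0.25) for MX1. No gene of these lists passed the threshold.

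Markers of other cell types gave no gene past the threshold either. Median log2 fold changes were -0.06 for 10 adipocyte genes, 0.28 for 8 fibroblast genes, -0.67 for 3 tendon and cartilage genes, 0.14 for 12 of smooth muscle and pericytes, 0.18 for 11 of endothelium, 0.05 for 12 of macrophages and leukocytes, -0.35 for 3 of red blood cells, 0.47 for 2 of nerve, -0.08 for 5 of satellite cells and -0.01 for 8 of proliferating cells. The matrix gene DCN of fibroblasts had 0.21 (SE 0.45), ACTA2 of smooth muscle 0.38 (SE 0.22), PECAM1 of endothelium 0.15 (SE 0.19), PTPRC of leukocytes -0.23 (SE 0.34), MYF5 of satellite cells 0.36 (SE 0.43) and TOP2A of dividing cells -0.02 (SE 0.42). HBB of red blood cells had -0.45 (SE 0.45). The defining markers PLIN1, PDGFRA, TNMD and MYH11 were too low to be tested, at 1.19 CPM or less on average in each muscle. The 19 tested hepatocyte genes had a median log2 fold change of 0.36, and all 25 with an ID summed to between 24.5 and 223 CPM in LD and between 32.8 and 1754 CPM in S, the highest sum being in pig 5. The direction of this list rested on single pigs, since its median was -0.40 without pig 5 (2 of 15 positive) and -0.11 without pig 1 (4 of 17 positive). ALB had 0.21 (SE 0.80) and APOA1 0.60 (SE 0.36), and ITIH4, called higher in LD by DESeq2, had -1.20 (SE 0.27, adjusted p = 0.205). The part of these liver transcripts in the comparison was not tested beyond leaving out pig 5, without which 15 genes passed, the 7 among them.

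The same muscles were compared in the 8 PL pigs to see whether the differences of PUL were found there. With all PL pigs, 0 of 10680 genes passed (0%) in edgeR's quasi-likelihood test, 144 had an unadjusted p under 0.05, and DESeq2 called 2, ZIC1 and an ID without a symbol. All 7 genes of PUL had the same sign in PL. Without pigs 8 and 14, 3 of 10821 genes passed (0.0277%), ZIC1 and ZIC4 higher in LD and HOXA11 higher in S. The log2 fold changes were then -3.99 (SE 0.30) for ZIC1, -4.59 (SE 0.46) for ZIC4, -2.41 (SE 0.35) for HOXC6, 1.31 (SE 0.25) for HOXA7 and -0.86 (SE 0.19) for MSS51. Since ZIC1, ZIC4, HOXC6, HOXA7, HOXA10 and HOXA11 served to see which libraries went against their labels, these values and the 3 genes that passed are a description. Without the filter, all 25 genes of PUL had the same sign in the 6 remaining PL pigs and 10 of them passed there too, which is likewise a description, since the 10 include 5 of these 6 genes. In these 6 pigs the mitochondrial DNA genes were again positive in 13 of 13 with a median of 0.70, immediate early genes in 19 of 21 with a median of 0.63, and oxidative phosphorylation genes in 27 of 41 with a median of 0.04. Slow fibre genes were positive in 2 of 8, with a median of -0.54. Across 10465 genes, which are not independent replicates, the log2 fold changes of PUL and PL had a Pearson r of 0.341, or 0.449 without pigs 8 and 14.

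Whether the muscle difference of PUL differed from that of PL was tested as the interaction, coded as S minus LD in PUL less S minus LD in PL. With edgeR's quasi-likelihood test 0 of 11563 genes passed (0%) and 294 had an unadjusted p under 0.05. Without PL pigs 8 and 14, 0 of 11785 passed and 326 had an unadjusted p under 0.05. CYRIA, a regulator of actin assembly through RAC1, had the smallest p. It had 5.15 ± 1.66 CPM in LD and 8.41 ± 1.86 CPM in S of PUL (SD, n = 8 each) and was higher in S in 8 of 8 pigs. Its log2 fold change was 0.75 (SE 0.16) in PUL and -0.37 (SE 0.15) in PL, an interaction of 1.11 (SE 0.21) with an edgeR adjusted p of 0.465, while DESeq2 called it, as its only gene, with an adjusted p of 0.00469. CIB2 had log2 fold changes of 0.97 (SE 0.15) in PUL and -0.08 (SE 0.25) in PL, NDUFB10 of 0.40 (SE 0.11) and -0.08, and the ubiquitin ligase gene MARCHF2 of 0.50 (SE 0.17) and -0.24 (SE 0.14), with adjusted p of 0.9996 for the interaction of each. In PL without pigs 8 and 14, CYRIA had -0.31 (SE 0.17), CIB2 0.01 (SE 0.29), NDUFB10 -0.11 (SE 0.14) and MARCHF2 -0.27 (SE 0.17). Their interactions were then 1.05, 0.95, 0.50 and 0.76, each with an edgeR adjusted p of 0.981. CEP250, a centrosome gene with 1.03 ± 0.897 CPM in LD and 0.189 ± 0.440 CPM in S of PUL (SD, n = 8 each), was too low to be tested in each breed alone.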

How the data were processed

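RNA of 2 muscles of 8 PUL and 8 PL gilts was sequenced in 32 libraries. Per the methods and processing notes of the study, the authors trimmed the single reads, aligned them to Sscrofa10.2 with Bowtie2 and estimated expected counts per gene with RSEM. The deposited expected counts cover 25322 gene IDs, are not normalized, and divide reads between near-identical genes by estimation. A name table paired 11804 IDs with a symbol. Per the study's methods, libraries were pooled by 16 per lane and each was run in 4 technical replicates over lanes. Which libraries shared a pool, and the strand setting of the counting, are not given in the sources used here. Isoform values were not used.

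Expected counts, rounded, were fitted with edgeR 4.0.16 in R 4.3.3 (TMM factors, filterByExpr with the muscles as groups, glmQLFit, glmQLFTest, Benjamini-Hochberg adjustment over all tested genes), with the pig as a block, and SE were taken from the F statistic. CPM used TMM factors over 32 libraries. PL was fitted likewise, and the interaction over all libraries. Alternatives used DESeq2 1.42.0, limma 3.58.1, other factors, filters and samples, and left out each pig. Scripts were tested on simulated counts. The pairing comes from the animal number, and deviations of a pig's 2 libraries from the group means correlated by 0.0427 to 0.622, above 0.1 in 7 of 8 pairs. The LD library correlated best with the S library of its own pig in 3 of 8 pigs. The S library did so with the LD library of its own pig in 6 of 8.

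Genes were named by a rule: those past the threshold with a symbol, a mean of 1 CPM or more and 1 direction in all pigs (up to 12 per direction), the first 2 symbols and up to 4 passing genes of each of 30 lists, and the 5 smallest p of the interaction. All others were picked with their values in view. Comparison, lists and rule were chosen with earlier results of these data known. Intervals of ratios cover counting error only. Gene order came from the RefSeq table of Sscrofa11.1. Some genes are not reported here.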

Additional observations from a re-analysis of the deposited data

Results flagged for a closer look

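In ENSSSCG00000016700, which was higher in S, the LD library of PUL pig 16 had 1.61 CPM, while the next highest LD library had 0.259 CPM, a gap of 0.839 of the range of the group. Of the 14 groups examined, 2 muscles for each of the 7 genes past the threshold, this was the only one flagged for its gap. How often chance gives such a gap in values of this kind was not tested. The value of pig 16 lay below its own S library, at 3.19 CPM, and below all S libraries.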

How the results depend on the processing

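The 7 genes of PUL became 112 with DESeq2, 25 with no filter on low counts, 3 when each library had to hold at least 10 counts, 3 with all 32 libraries in one fit, and 22 in one fit without PL pigs 8 and 14, which was added after the data were seen. Leaving out 1 pig gave from 3 (pig 3) to 15 (pig 5). Without the pig as a block it was 6, and other factors, limma and robust dispersion gave 7 or 8. The interaction had 0 genes in each setting run except DESeq2, with 1. PL had 0 genes, but 2 with DESeq2 and 3 without pigs 8 and 14, and 0 whichever single pig was left out. The stricter filter left ZIC1, ZIC4, HOXC6 and ENSSSCG00000016700 untested, and the cause of the other changes was not tested. ZIC4 and HOXC6 passed in 18 of 19 settings, ZIC1 and HOXA7 in 17, MSS51 and ENSSSCG00000016700 in 12 and ENSSSCG00000025216 in 11. With all 32 libraries in one fit, ZIC1 had an edgeR adjusted p of 0.0556 and HOXA7 of 0.185. Over 38 genes named in the text, 683 values kept their direction and side of the threshold, 24 lost and 7 gained it, and 0 called values changed sign (an uncalled value within 1 SE of 0 was not counted as changing).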
